A study of Mus musculus with 21 samples.

Results

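The genes described here are the 5 actin genes Actc1, Acta1, Acta2, Actb and Actg1 and the 4 tropomyosin genes Tpm1, Tpm2, Tpm3 and Tpm4, which are 9 of the 24421 genes in the deposited mouse count table. They were chosen by name, not by a measured value, but with earlier results of these data known. They are compared as muscle isoforms (Actc1, Acta1, Acta2, Tpm1 and Tpm2) and cytoplasmic isoforms (Actb, Actg1, Tpm3 and Tpm4). The study profiled heart ventricles of E12.5 mouse embryos, in 21 samples of 8 groups, to compare the binding of the transcription factor GATA4 in endothelial and cardiomyocyte lineages. RNA came from 2 endothelial libraries (EC), each of 60000 cells sorted by a Tie2Cre-activated Rosa26fsTRAP reporter, and from 3 libraries labelled cardiomyocytes (CM), whose isolation the sources used here do not describe. GATA4 was mapped by bioChIP, in which Cre switches on the biotin tagging of GATA4 and tagged chromatin is captured on streptavidin beads, in 3 libraries with Tie2-Cre and 3 with Tnnt2-Cre, each of 15 to 20 pooled ventricles. Tie2-Cre is active in endothelial and endocardial cells and also in blood cells, and Tnnt2-Cre in cardiomyocytes. ATAC, a transposase assay of open chromatin, was done on 2 libraries of 40000 sorted Tie2-Cre cells, on 3 libraries labelled Gata4 het and on 3 labelled Gata4 ko, the latter 6 of 20000 sorted cells each. Those 6 carried a Cdh5CreER driver and a Rosa26mTmG reporter and were exposed to 1 mg of tamoxifen at embryonic day 9.5, so the het controls shared the driver, the reporter and the drug with the ko group; the labels do not describe the Gata4 alleles further. Open chromatin of cardiomyocytes (2 samples) was not analysed here. The labels do not tell whether replicates are separate litters, and p-values therefore cover the spread between these libraries only.

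Actin monomers polymerise into the filaments that pull, shape and move cells. Muscle cells build sarcomere thin filaments from alpha actins, while beta and gamma cytoplasmic actins form the cortex and stress fibres of other cells. Tropomyosins are coiled coils that lie along the filament and set which partners, such as myosin, troponin or cofilin, can reach it. Each tropomyosin gene makes several proteins by alternative starts and splicing, and Tpm1 and Tpm3 make muscle as well as cytoplasmic forms, so the 2 classes above name the best known product of each gene and not every transcript. The embryonic heart is known to express cardiac alpha actin (Actc1) together with smooth muscle alpha actin (Acta2) and skeletal alpha actin (Acta1).

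Sequences upstream of the start are shown for the genes whose start regions differed in the open chromatin lists or carried a CArG box, the site of serum response factor, a factor long known to act on actin genes. They are the 250 bases before the RefSeq start (GRCm38.p6), 5′ to 3′ on the gene's strand, and capitals mark CArG boxes and CArG-like sites, in which 1 of the 6 central letters is G or C.
Actc1 (chr2:114052876-114053125, minus strand): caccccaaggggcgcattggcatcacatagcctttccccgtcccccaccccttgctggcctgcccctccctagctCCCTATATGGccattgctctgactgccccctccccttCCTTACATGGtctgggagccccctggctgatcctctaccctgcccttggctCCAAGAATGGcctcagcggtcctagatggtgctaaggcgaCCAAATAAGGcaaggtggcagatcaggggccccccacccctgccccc
Acta1 (chr8:123894776-123895025, minus strand): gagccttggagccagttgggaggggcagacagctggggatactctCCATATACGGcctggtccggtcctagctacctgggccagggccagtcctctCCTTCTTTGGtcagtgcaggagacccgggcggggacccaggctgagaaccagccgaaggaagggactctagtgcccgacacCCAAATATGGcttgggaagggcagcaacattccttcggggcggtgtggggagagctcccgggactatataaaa
Acta2 (chr19:34255374-34255623, minus strand): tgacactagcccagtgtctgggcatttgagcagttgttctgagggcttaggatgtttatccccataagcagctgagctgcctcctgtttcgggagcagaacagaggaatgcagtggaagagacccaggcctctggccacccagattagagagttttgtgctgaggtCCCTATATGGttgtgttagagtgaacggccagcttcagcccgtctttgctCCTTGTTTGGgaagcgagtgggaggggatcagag
Actg1 (chr11:120348496-120348745, minus strand): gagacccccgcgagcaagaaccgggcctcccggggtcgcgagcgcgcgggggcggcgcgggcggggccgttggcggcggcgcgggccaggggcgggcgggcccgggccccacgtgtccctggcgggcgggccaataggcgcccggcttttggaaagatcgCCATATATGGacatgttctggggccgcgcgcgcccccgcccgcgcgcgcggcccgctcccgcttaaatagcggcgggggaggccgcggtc
Tpm3, outermost start (chr3:90072401-90072650, plus strand): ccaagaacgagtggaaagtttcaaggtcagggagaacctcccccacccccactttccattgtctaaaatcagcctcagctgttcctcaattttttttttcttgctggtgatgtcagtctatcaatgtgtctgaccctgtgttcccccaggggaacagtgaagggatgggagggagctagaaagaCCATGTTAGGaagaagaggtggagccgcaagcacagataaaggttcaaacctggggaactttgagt
Tpm3, second start (chr3:90079271-90079520, plus strand): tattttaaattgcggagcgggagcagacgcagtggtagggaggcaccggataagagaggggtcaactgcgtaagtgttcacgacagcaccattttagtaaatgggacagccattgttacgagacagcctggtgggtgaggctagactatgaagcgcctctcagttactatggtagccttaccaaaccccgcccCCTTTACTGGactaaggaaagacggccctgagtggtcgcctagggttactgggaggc

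The RefSeq table matched 8 of the 9 members, with 9 windows; Actb was not matched. A full CArG box stood in 3 of the 9 windows and in 1.47% of 32817 RefSeq promoters of the same length. Counting back from the base before the RefSeq start as position -1, it lay at -47 to -38 in Actc1 (CCAAATAAGG), at -73 to -64 in Acta1 (CCAAATATGG) and at -90 to -81 in Actg1 (CCATATATGG). It was therefore found in 2 muscle actins and 1 cytoplasmic actin. With CArG-like sites counted too, a form added after the data were seen, 6 of 9 windows held a match, against 8.60% of all promoters. Acta2 had only CArG-like sites, CCCTATATGG at -84 to -75 and CCTTGTTTGG at -34 to -25. The letters CCCTATATGG also occurred in Actc1, at -175 to -166. Other motifs were searched on both strands. CATTCC, the MCAT element bound by TEAD factors, was found in Acta1, Acta2 and Tpm1 (12.6% of all promoters). AGATAA, a site of GATA factors, was found only at the outermost Tpm3 start (9.99%). The box TATAAA was found only in Acta1 (12.4%). The MEF2 motif was found in none of the 9 windows (2.92%), and no match overlapped a match of another motif. These are matches of letters in short windows and do not show that a factor binds there.

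Reads counted on genes ranged from 21682362 to 27660790 in EC and from 42948614 to 48393473 in CM, and the 9 members took 0.626% to 0.643% of them in EC and 1.22% to 1.32% in CM. All 8 endothelial markers, among them Pecam1, Cdh5 and Kdr, were higher in EC, with a summed level of 5277 to 5317 CPM (counts scaled to library size) against 653 to 758 in CM. All 8 cardiomyocyte markers, among them Myh6, Myh7 and Ttn, were lower in EC, at 371 to 383 against 75572 to 84310 CPM. Blood and macrophage markers (9 genes, Hba-a1 at 0 in every library) summed to 40.4 to 47.4 CPM in EC and 1353 to 3194 in CM, where most came from the embryonic globin Hbb-y. The sum hides a split, as 4 of the 8 tested were lower in EC and 4 higher. The higher ones were Ptprc (16.2-fold), Csf1r (2.65-fold), Cx3cr1 (35.9-fold) and Itga2b (3.60-fold), with EC means of 1.36, 4.81, 1.70 and 13.0 CPM. Mural, fibroblast and epicardial markers summed to 736 to 760 CPM in EC and 740 to 761 in CM, but Pdgfra, Pdgfrb and Col1a1 were higher in EC and 7 of the 11 were lower. The ribosomal precursor Rn45s took 5.34% to 5.77% of reads in EC and 0.118% to 0.200% in CM. The part of these differences in the results below was not tested, except where levels are set beside those of markers.

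All 9 members passed the filter on low counts and differed between EC and CM, 5 lower and 4 higher in EC. The 5 lower genes were the 5 muscle isoforms and the 4 higher genes were the 4 cytoplasmic isoforms. Calls were common in this comparison: of 14851 genes tested with edgeR's quasi-likelihood test (Benjamini-Hochberg adjusted p under 0.05), 37.5% were higher in EC, 40.2% lower, and 77.8% either. That a member was called therefore says little, and the sizes below are given beside those of all genes. Because these are bulk libraries, fewer cells of a type and less RNA per cell cannot be told apart. The headers of the EC and CM count columns also differ in form. Any difference in how the EC and CM libraries were prepared cannot be told apart from cell type.

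Among the muscle actins, Actc1 (chr2:114047289-114052811, minus strand), the main actin of the cardiac sarcomere, was at 103 and 107 CPM in EC replicates 1 and 2 and at 5455, 6190 and 6599 CPM in CM replicates 1 to 3. The groups did not come near each other. The log2 difference, EC minus CM, was -5.85 (SE 0.12, edgeR adjusted p = 3.85e-11), a 57.8-fold lower level in EC. Differences at least this large in either direction were found for 3.10% of the genes tested. Acta1 (chr8:123891758-123894775, minus strand), the actin of adult skeletal muscle, stood at 3.44 and 4.75 CPM in EC and at 149, 151 and 136 in CM. It was the lowest of the 5 actins in EC, and its log2 difference was -5.17 (SE 0.13, edgeR adjusted p = 1.43e-10), or 35.9-fold. Acta2 (chr19:34240336-34255373, minus strand), known as a marker of smooth muscle, measured 40.7 and 43.6 CPM in EC and 1162, 1264 and 1550 in CM. It too was separated without overlap, lower in EC by 31.5-fold (log2 difference -4.98, SE 0.14, edgeR adjusted p = 2.57e-10). Differences at least as large were found for 4.03% of genes in the case of Acta1 and 4.37% in the case of Acta2. Of the 11 mural, fibroblast and epicardial markers, 7 were lower in EC as Acta2 was, among them Cspg4 (6.65-fold), Kcnj8 (11.5-fold) and Abcc9 (11.7-fold). Pdgfrb (7.48-fold), Pdgfra (5.31-fold) and Col1a1 (4.76-fold) were higher, and Rgs5 did not pass (edgeR adjusted p = 0.0880). The part of these markers, or of the cells that express them, in the Acta2 difference was not tested.

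The cytoplasmic actins went the other way. Actb (chr5:142903118-142906754, minus strand), the beta actin often used as a reference gene, was at 3501 and 3521 CPM in EC and at 816, 886 and 907 in CM. Its EC libraries differed by far less than the distance to CM, and the log2 difference was 2.01 (SE 0.08, edgeR adjusted p = 1.75e-09), or 4.04-fold. Actg1 (chr11:120345690-120348484, minus strand), the gamma actin, had 684 and 785 CPM in EC and 82.5, 107 and 103 in CM. Its relative difference was larger than that of Actb, at 7.54-fold (log2 difference 2.91, SE 0.11, edgeR adjusted p = 1.92e-09). The ratio of Actg1 to Actb per kb of exonic length was 0.212 ± 0.0199 (SD) over the 2 EC libraries and 0.113 ± 0.00994 over the 3 CM libraries. Differences at least as large were found for 21.9% of genes in the case of Actb and 12.1% in the case of Actg1. Actin genes have near-identical coding sequences and many processed copies, and the counting command in the file header sets no option for reads that map to several places, so levels of single actins carry that uncertainty.

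The tropomyosins split in the same directions, Tpm1 and Tpm2 by smaller ratios than the 3 muscle actins. Tpm1 (chr9:67022593-67049213, minus strand), the alpha tropomyosin of the heart, was at 421 and 409 CPM in EC and 4079, 3735 and 3671 in CM. It was lower in EC by 9.22-fold (log2 difference -3.21, SE 0.09, edgeR adjusted p = 2.30e-10), but rank 383 per kb among all tested genes in EC. Tpm2 (chr4:43513726-43523554, minus strand), the beta tropomyosin of skeletal and smooth muscle, was low in both, with 20.3 and 17.3 CPM in EC and 64.6, 73.2 and 79.3 in CM. Its groups did not overlap and differed 3.84-fold (log2 difference -1.94, SE 0.11, edgeR adjusted p = 5.96e-08). Tpm3 (chr3:90072651-90100902, plus strand) was at 582 and 653 CPM in EC and 136, 137 and 121 in CM, and was higher in EC by 4.70-fold (log2 difference 2.23, SE 0.08, edgeR adjusted p = 1.54e-09). Tpm4 (chr8:72135292-72153129, plus strand), a tropomyosin of stress fibres and platelets, was at 785 and 773 CPM in EC and 365, 352 and 321 in CM. Its log2 difference of 1.17 (SE 0.07, edgeR adjusted p = 1.09e-07), or 2.25-fold, was the smallest of the 9, and 40.1% of genes differed at least as much. That share was 10.3% for Tpm1, 23.0% for Tpm2 and 19.0% for Tpm3. Counts are per gene, so different transcripts of any of the 4 tropomyosin genes, such as muscle and cytoplasmic ones of Tpm1 or Tpm3, were not separated.

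**Figure D1:**
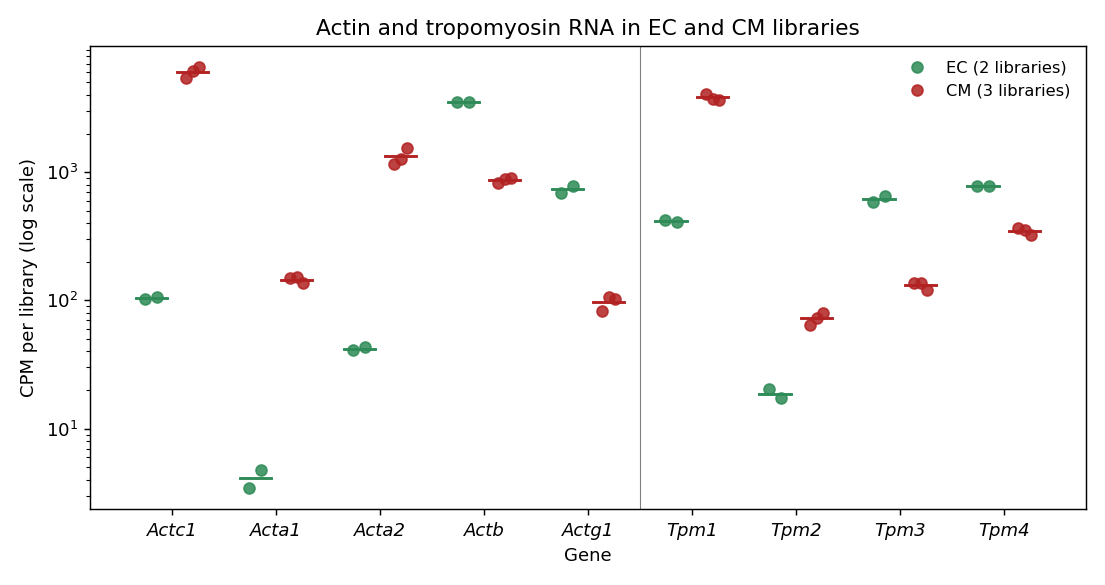
CPM (log scale) of the 9 members in each RNA library, with EC in green (2 points), CM in red (3 points) and bars at the group means. The 5 muscle isoforms lie higher in CM and the 4 cytoplasmic isoforms higher in EC, with no overlap between groups, from 3.44 CPM (Acta1, EC) to 6599 CPM (Actc1, CM).

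Levels were also compared per kb of the gene's exonic length, so that genes can be set beside each other. The 5 actins summed to 2314 ± 48.9 CPM per kb over the 2 EC libraries (mean ± SD) and 5488 ± 516 over the 3 CM libraries, a ratio of 2.37. The 4 tropomyosins summed to 691 ± 7.57 in EC and 1395 ± 75.7 in CM, a ratio of 2.02. The composition differed far more than the totals. Muscle actins made up 4.05% and 4.13% of actin RNA per kb in EC and 90.5%, 90.7% and 91.2% in CM. Actb alone was 79.2% ± 1.35 (SD, n = 2) of actin RNA in EC and 8.29% ± 0.340 (SD, n = 3) in CM, and Actc1 was 3.27% ± 0.0200 in EC and 79.7% ± 0.345 in CM. The muscle pair Tpm1 and Tpm2 made up 19.1% ± 0.702 of tropomyosin RNA in EC and 85.3% ± 0.536 in CM, nearly all of it Tpm1. Tpm4 was 54.1% ± 1.17 in EC and 11.9% ± 0.392 in CM, and Tpm3 was 26.7% ± 1.87 and 2.82% ± 0.148.

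**Figure D2:**
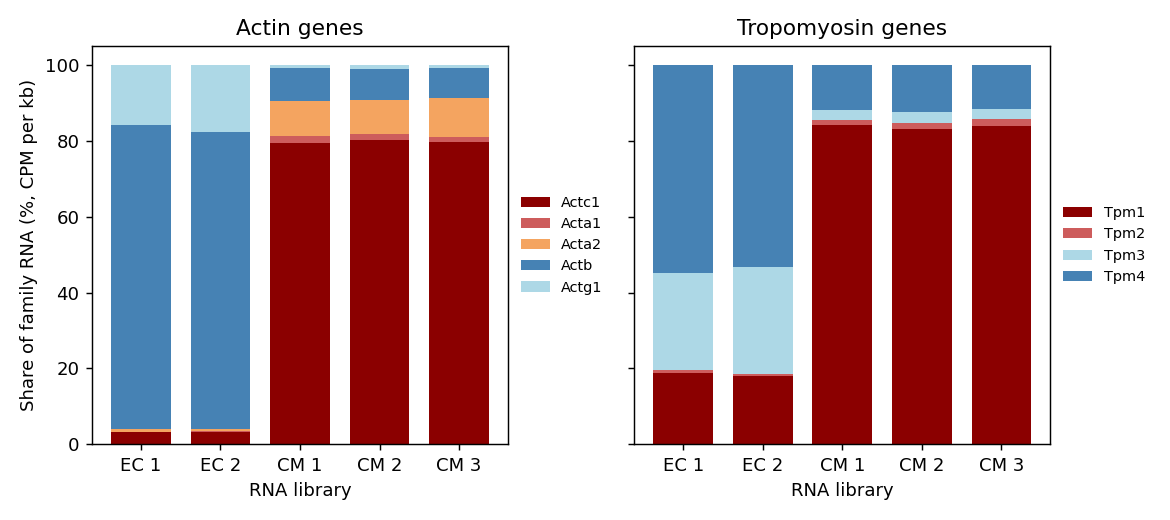
Share of each gene in the RNA of its family (percent of CPM per kb), 1 bar per library, with muscle isoforms in red tones and cytoplasmic isoforms in blue tones. Actb takes 79.2% of actin RNA on average in EC and Actc1 takes 79.7% in CM, while the tropomyosin bars change from mainly Tpm4 and Tpm3 to mainly Tpm1.

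The order of the 9 levels per kb in EC was Actb (1832), Actg1 (388), Tpm4 (374), Tpm3 (185), Tpm1 (127), Actc1 (75.6), Acta2 (16.4), Tpm2 (5.65) and Acta1 (2.61). Only the neighbours Actg1 and Tpm4 overlapped between libraries. In CM the order was Actc1 (4375), Tpm1 (1168), Acta2 (515), Actb (454), Tpm4 (166), Acta1 (92.6), Actg1 (51.4), Tpm3 (39.4) and Tpm2 (21.8), and only Acta2 and Actb overlapped. On this scale Actc1 held rank 5 of all tested genes in CM and rank 740 in EC, and Actb rank 8 in EC and rank 114 in CM. In CM, Acta2 was as abundant per kb as Actb, with a ratio of 1.13 ± 0.122 (SD, n = 3), against 0.00895 ± 0.000388 in EC (SD, n = 2). This near equality depends on the lengths used. From counts not divided by length, Acta2 was 15.5% ± 1.03 and Actb 10.2% ± 0.445 of actin counts in CM (SD, n = 3). Within the muscle actins the ratio of Acta2 to Actc1 was 0.217 ± 0.00437 in EC and 0.117 ± 0.00854 in CM.

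Low levels in one lineage were set beside markers of the other. The 8 cardiomyocyte markers reached 0.106% (Ttn) to 2.16% (Actn2) of their CM level in EC, with a median of 0.741%. Actc1, at 1.73%, lay within this range, and Acta1 (2.82%) and Acta2 (3.18%) lay just above it. Tpm1, at 10.8%, and Tpm2, at 26.0%, lay beyond every one of the 8 markers. In the other direction, the 8 endothelial markers reached 5.58% (Eng) to 22.2% (Tek) of their EC level in CM, with a median of 15.6%. Actg1 (13.3%) and Tpm3 (21.3%) fell within this range in CM, while Actb (24.8%) was just above it and Tpm4 (44.4%) was above all 8. How much of the Actc1 RNA in EC, or of the Actg1 RNA in CM, came from cells of the other lineage was not tested.

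Genes that work with these filaments were described from 5 lists. They are set beside all tested genes, of which 37.5% were higher in EC and 40.2% lower, with a median log2 difference of -0.06. Each of the 17 striated thin filament genes had a lower level in EC, and their median log2 difference was -5.71, which is in the range of the muscle actins. The 5 that shared the smallest edgeR adjusted p (1.67e-11) were the inhibitory troponin Tnni3 (log2 difference -7.85, SE 0.13), the calcium-binding troponin Tnnc1 (-6.48, SE 0.11), the nebulin relative Nebl (-7.34, SE 0.12), the Z-disc alpha-actinin Actn2 (-5.54, SE 0.09) and the actin-recycling factor Cap2 (-5.60, SE 0.10). Tnnt2, the gene whose promoter drives the Tnnt2-Cre used here, differed by -6.04 (SE 0.14). The list's smallest difference was that of the muscle cofilin Cfl2, at -1.30 (SE 0.07).

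The 14 smooth muscle genes did not go one way: 6 were higher in EC, 6 lower and 2 (Myl6 and Mylk) did not pass, with a median of 0.04. These counts were near the shares of all tested genes (37.5% higher and 40.2% lower). Cnn1, a calponin, was at 7.80 and 7.29 CPM in EC and 413, 397 and 387 in CM, lower in EC by 52.8-fold (edgeR adjusted p = 1.67e-11). Myl9, a myosin light chain, had 21.8 and 19.8 CPM in EC and 852, 846 and 863 in CM, lower by 41.0-fold, and Tagln (transgelin) was lower by 2.25-fold. These 3 fell on the same side as Acta2. Caldesmon (Cald1), smoothelin (Smtn) and filamin A (Flna) were higher in EC, by 5.84-fold, 4.94-fold and 2.48-fold (edgeR adjusted p between 3.66e-09 and 2.09e-08). Actg2, the smooth muscle gamma actin, was under 1 CPM in all 5 libraries (0.112 to 0.951 CPM; edgeR adjusted p = 0.0378, higher in EC). The smooth muscle myosin Myh11 was near 0 in all 5 libraries, at 0.0906 to 1.29 CPM, although it was called lower in EC (edgeR adjusted p = 0.0134).

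Of 24 genes of cytoplasmic actin assembly and turnover, 17 were higher in EC, 6 lower and 1 (Vasp) did not pass, with a median log2 difference of 0.80. Profilin (Pfn1, 4.17-fold), tropomodulin 3 (Tmod3, 3.28-fold) and cofilin 1 (Cfl1, 3.32-fold) were the higher genes with the smallest edgeR adjusted p (2.21e-09 to 5.51e-09). Lower in EC were gelsolin, which severs filaments (Gsn, 13.0-fold), destrin, which depolymerises them (Dstn, 6.05-fold), and the capping protein Capza2 (2.17-fold). Cfl1, Cfl2 and Dstn belong to 1 protein family, and Cfl1 was higher in EC while Cfl2 and Dstn were lower. Of 15 non-muscle myosin and cytoplasmic actin-binding genes, 10 were higher in EC, 3 lower and 2 (Myh10 and Myl12a) did not pass, with a median of 1.20. Transgelin 2 (Tagln2) showed the largest difference, with 661 and 656 CPM in EC and 38.0, 35.6 and 38.5 in CM, or 17.6-fold (edgeR adjusted p = 1.67e-11). Lasp1 (4.72-fold) and zyxin (Zyx, 5.68-fold) had the next smallest adjusted p, and the 3 lower genes were ezrin (Ezr, 4.64-fold), vinculin (Vcl, 1.95-fold) and Myl12b (1.27-fold). Moesin (Msn), a relative of ezrin named after its values were seen, was higher in EC by 9.65-fold.

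The machinery that folds and matures actin was mostly lower in EC by small ratios: 13 of 16 genes were lower and 3 higher, with a median log2 difference of -0.47. The prefoldin subunits Vbp1 (3.26-fold) and Pfdn1 (3.40-fold) and the chaperonin subunit Tcp1 (2.37-fold) were the lower genes with the smallest edgeR adjusted p (5.70e-09 to 1.75e-07). The other chaperonin (Cct) subunits differed by less, and Cct8 was among the 3 higher genes at 1.18-fold, with Pfdn2 (1.84-fold) and Naa80, the enzyme that acetylates processed actin (2.27-fold). Naa80 is listed as Nat6 in the count table. The actin histidine methyltransferase Setd3 was lower by 1.66-fold.

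**Figure D3:**
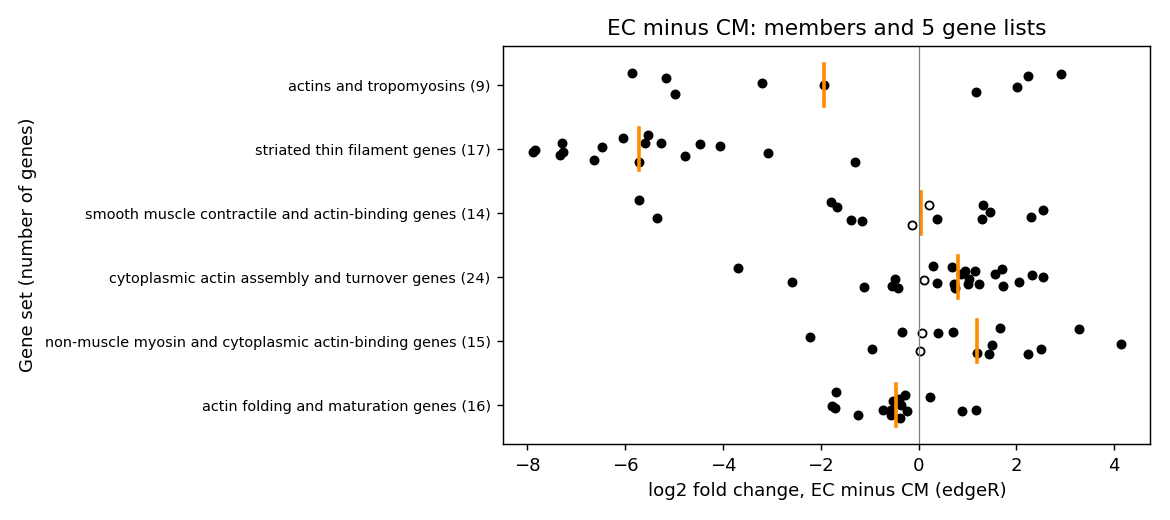
log2 fold change, EC minus CM, of each member and of each tested gene of the 5 lists (number of genes in brackets). Filled points have an edgeR adjusted p under 0.05, open points do not, and the orange bar is the median; the thin filament list centres at -5.71 while the smooth muscle list spreads on both sides of 0.

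The genes most like a member in pattern were found among 4285 genes with a mean of at least 50 CPM, by the root mean square difference of gene-centred log2 CPM over the 5 RNA libraries. Hdac9 (0.09) and Ankrd1 (0.09) were among the 3 nearest to Actc1. Nearest to Acta2 were Ppp1r12b (0.08), Vldlr (0.09) and Pfkp (0.09), and to Actb Gnb1 (0.03), Asap2 (0.04) and Ext2 (0.04). Ankrd1, for example, was at 23.6 and 23.7 CPM in EC and 1462, 1497 and 1576 in CM. All of these values come from the same 5 libraries, and no test was made of the likeness.

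GATA4 peaks were then placed in the gene body or within 50 kb of it. Peaks of the 6 libraries that shared at least 1 bp were merged, and a region was called selective for a lineage with a peak in at least 2 of 3 of its libraries and none of the other's. A shared region had peaks in 2 or more of 3 libraries per lineage. All 9 members had a GATA4 region of some kind, as did 96.1% of 14838 tested genes. Their windows held 43 merged regions: 4 Tie2-Cre-selective, 10 Tnnt2-Cre-selective, 5 shared and 24 that met none of these. The windows of the 5 muscle members held 0 Tie2-Cre-selective, 8 Tnnt2-Cre-selective and 3 shared regions, and those of the 4 cytoplasmic members 4, 2 and 2. Of the 8, 4 lay at Actc1 alone. Over the whole genome 6095 regions were Tie2-Cre-selective, 9086 Tnnt2-Cre-selective and 6535 shared. The difference between the 2 isoform classes was not tested. At least 1 Tie2-Cre-selective region lay at 3 of 9 members, against 34.1% of the tested genes. Tnnt2-Cre-selective regions lay at 5 of 9 (48.3% of genes) and shared regions at 4 of 9 (52.0%). These shares of members were near those of genes in general, and windows can hold other genes. The split rests on few libraries: Tie2-Cre replicate 2 (2734 peaks) and Tnnt2-Cre replicate 2 (3603 peaks) were short lists beside the others (17682 to 30447 peaks). Without Tie2-Cre replicate 1 or 3 the Tie2-Cre-selective count was 0 and the shared count 1, and without Tnnt2-Cre replicate 1 or 3 the Tnnt2-Cre-selective count was 0 and the shared count 2. With all 6 lists held to equal length the 3 counts were 1, 1 and 0.

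Actc1 had no GATA4 peak in any of the 3 Tie2-Cre libraries and 4, 0 and 4 in Tnnt2-Cre replicates 1 to 3, all 4 upstream of the gene. The closest, at chr2:114053954-114054443, was centred 1387 bp upstream of the Actc1 start and 198 bp from that of C130080G10Rik. Its deposited fold over background was 5.12 and 7.21 in Tnnt2-Cre replicates 1 and 3. Of the other 3, those 19301 and 45002 bp upstream were also outside every endothelial ATAC list, and that at 4843 bp was within peaks of both Tie2-Cre ATAC libraries. Acta2 had 2 Tnnt2-Cre-selective regions inside the gene. One (chr19:34254121-34254381) was centred 1122 bp downstream of its start and the other (chr19:34252628-34252862), in an intron, at 2628 bp; both had peaks in Tnnt2-Cre replicates 1 and 3, with deposited folds of 4.77 and 4.52 and of 4.25 and 6.20. Acta1 had 1 such region, 22497 bp downstream of its start and nearer to the start of Ccsap.

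Tpm1, whose RNA was high in CM and not low in EC, had 2 shared regions and 1 Tnnt2-Cre-selective region. The strongest region of all members by mean rank within the lists was the shared one at chr9:67077438-67078187, centred 28599 bp upstream. Its deposited fold was 6.32 and 10.4 in Tie2-Cre replicates 1 and 3 and 9.68, 6.14 and 9.99 in Tnnt2-Cre replicates 1 to 3. The second shared region (chr9:67020013-67020549) lay just past the 3′ end of the gene, with a fold of 4.43 and 4.40 in Tie2-Cre and 6.60 and 6.90 in Tnnt2-Cre replicates 1 and 3. Tpm2 had 1 shared region 6946 bp upstream (chr4:43530086-43530915).

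At the cytoplasmic genes, Actb had a shared region 19672 bp upstream (chr5:142926028-142926825), with peaks in Tie2-Cre replicates 1 and 3 and all 3 Tnnt2-Cre libraries. It also had a Tie2-Cre-selective one 14192 bp upstream (chr5:142920701-142921192), with a fold of 6.27 and 5.88 in Tie2-Cre replicates 1 and 3. Tpm3 had 2 weak Tie2-Cre-selective regions in introns (chr3:90081235-90081525 and chr3:90084148-90084346), with folds between 3.06 and 4.72. Actg1 had regions of every class: a Tie2-Cre-selective one 7047 bp upstream, a shared one 31983 bp downstream with peaks in all 3 Tie2-Cre libraries, and 2 Tnnt2-Cre-selective ones, 48740 bp downstream and 38247 bp upstream of its start. Tpm4 had only regions of no class, among them 1 peak at its start in Tie2-Cre replicate 3. Within 1 kb of the outermost start, Acta2 and Actb had a GATA4 peak in 1 Tnnt2-Cre library each and Tpm4 in 1 Tie2-Cre library. At least 1 such peak was found for 37.5% of genes with Tie2-Cre and 44.1% with Tnnt2-Cre.

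**Figure D4:**
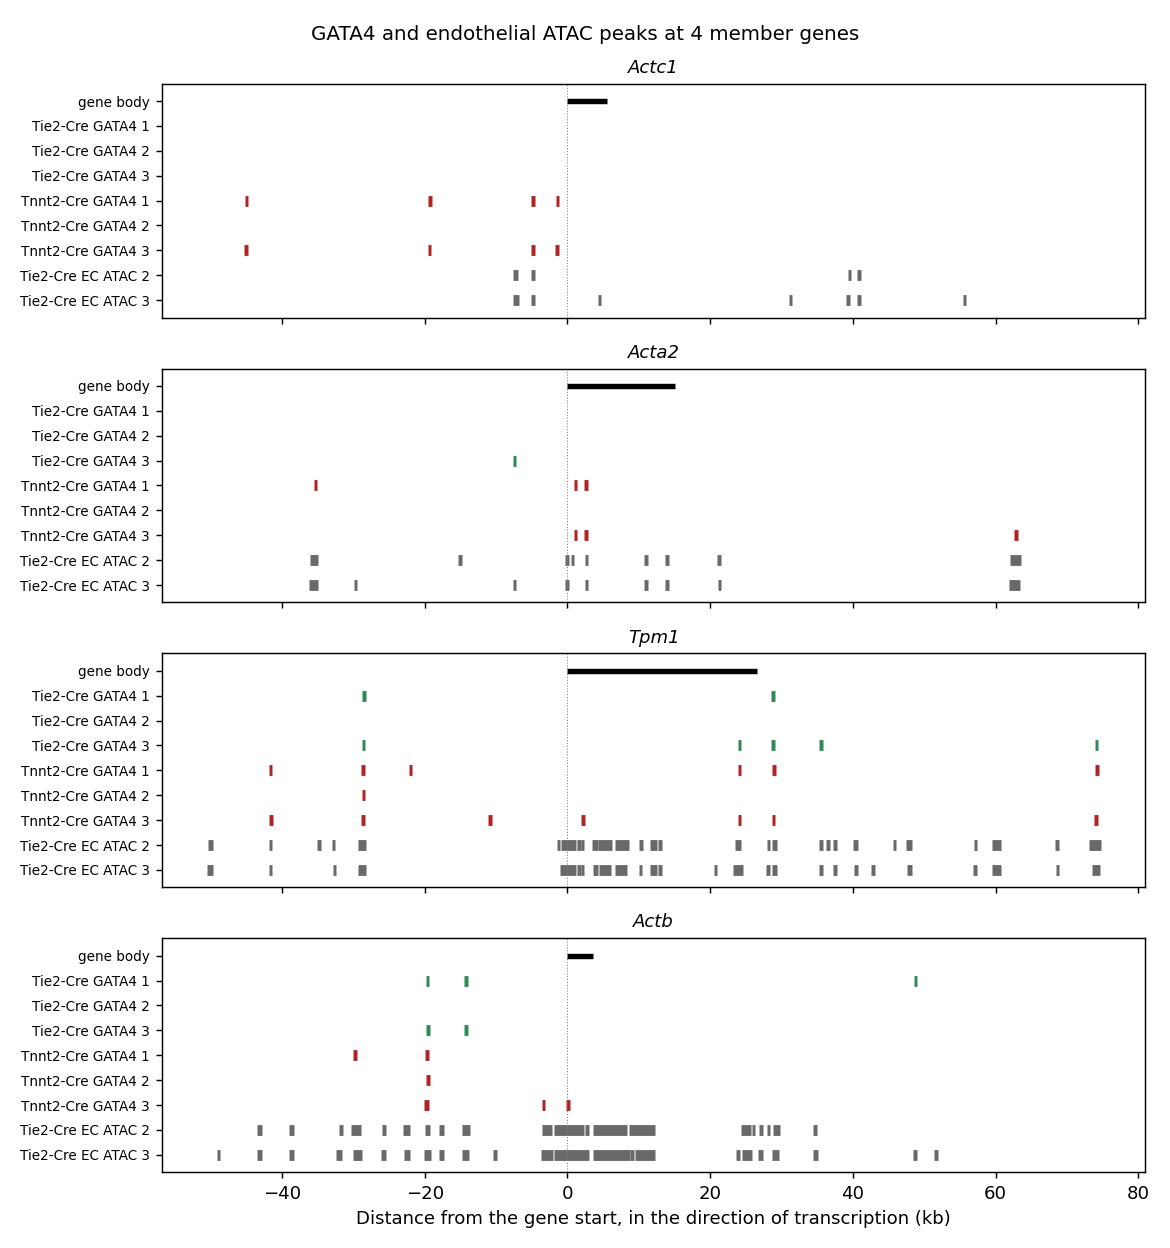
Deposited GATA4 peaks (Tie2-Cre green, Tnnt2-Cre red) and ATAC peaks of Tie2-Cre endothelial cells (grey) by library at Actc1, Acta2, Tpm1 and Actb, with distance from the gene start in kb and the gene body in black; narrow peaks are drawn at least 0.5 kb wide. Actc1 has GATA4 peaks only in Tnnt2-Cre replicates 1 and 3, and Tpm1 has a peak 28599 bp upstream in 5 of the 6 GATA4 libraries.

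GATA4 regions were also set against endothelial open chromatin. All 4 Tie2-Cre-selective and all 5 shared regions at members overlapped ATAC peaks of both Tie2-Cre libraries, as did 88.3% and 94.0% of such regions genome-wide. Of the 10 Tnnt2-Cre-selective regions, 3 did, against 41.3% genome-wide. Over all classes 32 of 43 did, against 69.0%. These shares too were near those of all regions.

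At the gene starts, an ATAC peak reaching within 1 kb was present in both Tie2-Cre endothelial libraries for 6 of the 9 members, against 91.3% of genes, and in all 8 endothelial libraries for 5, against 82.6%. Actc1 and Acta1 had no such peak in any of the 8 libraries. Acta2, which was also low in EC, had one in both Tie2-Cre libraries, in het replicates 2 and 3 and in ko replicates 2 and 3, with deposited folds of 4.79 and 4.20, 4.39 and 3.70, and 2.78 and 3.31. By fold within their own lists, the Acta2 peaks stood at percentiles 43.3 and 18.0 in het replicates 2 and 3. In ko replicates 2 and 3 they were near the bottom, at percentiles 3.14 and 8.92, with −log10 q of 1.08 and 1.89. Actb, Actg1, Tpm1, Tpm2 and Tpm4 had a peak reaching within 1 kb in all 8 libraries. In the Tie2-Cre libraries the fold of the strongest was 17.0 and 15.3 at Actb, 14.5 and 13.8 at Actg1, 11.3 and 12.8 at Tpm1 and 10.8 and 12.7 at Tpm4, but 7.34 and 7.21 at Tpm2. In these 2 lists Tpm1, a muscle isoform, thus ranked with Actb, Actg1 and Tpm4. The Actg1 summits lay at -1768 and -1841 bp from the start, and that of Tpm4 in replicate 3 at 1503 bp, so beyond 1 kb. In the het and ko lists Actg1 did not stand clearly above Tpm2. Actg1 stood at percentiles 15.4, 24.1 and 40.6 in het replicates 2 to 4 and 15.3, 27.3 and 24.4 in ko. Tpm2 stood at 47.5, 23.8 and 40.4 in het and 38.6, 65.6 and 34.0 in ko. Lists were called separately, so folds are compared within a list only: the Actb peak stood at percentiles 97.7 and 96.6 of the 2 Tie2-Cre lists and that of Acta2 at 56.5 and 51.3.

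Tpm3 showed a difference between its own starts. The outermost start (position 90072651) had no ATAC peak in any of the 8 libraries. The second RefSeq start (position 90079521), whose upstream sequence is printed above, had a peak in all 8, at percentiles 99.8 and 99.2 of the Tie2-Cre lists, above those of Actb. Fold there was 21.2 and 18.9 in Tie2-Cre replicates 2 and 3 and between 7.58 and 9.67 in the het and ko libraries. The shares of all genes given above use the outermost start only.

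**Figure D5:**
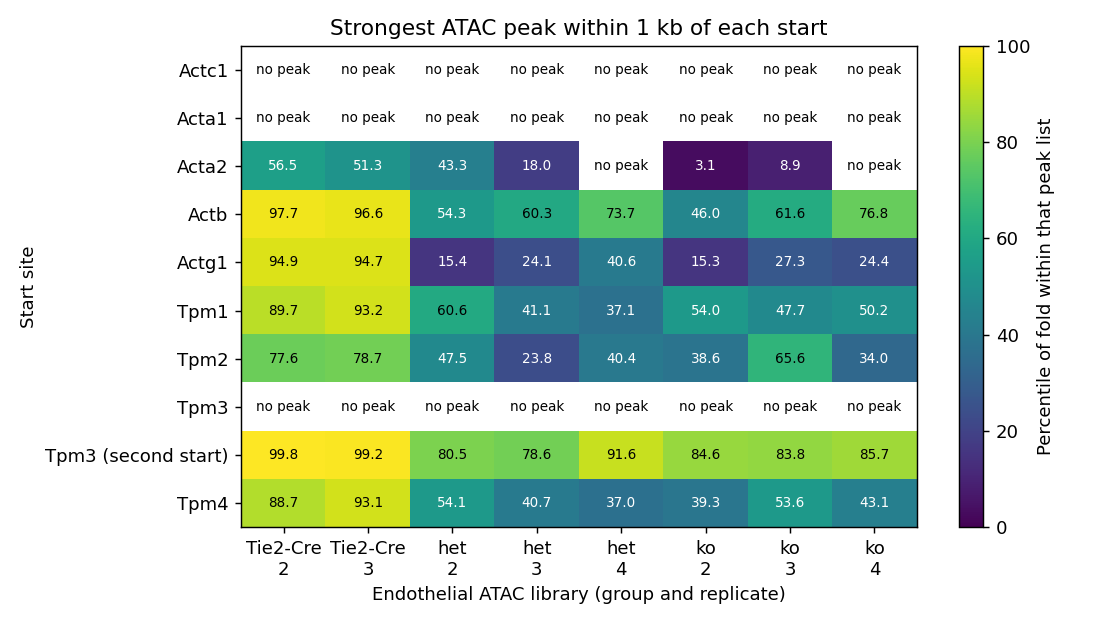
Percentile of the deposited fold, within each library's own peak list, of the strongest ATAC peak reaching within 1 kb of each start, with 1 column per endothelial library and 1 row per start. Actc1, Acta1 and the outermost Tpm3 start have no peak in any of the 8 libraries, and the second Tpm3 start is at percentile 78.6 or above in every library.

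Loss of Gata4 was addressed by the het and ko libraries, whose lists held 67201 to 90326 and 55733 to 87496 peaks. Of the merged het and ko ATAC regions at members, 65 were shared, 2 were het-selective, 2 ko-selective and 53 met no class. The het-selective regions lay 51658 bp downstream of the Actb start and 22023 bp upstream of Tpm1, and the ko-selective ones 35497 bp downstream of the Tpm1 start and 31829 bp downstream of the Tpm3 start. Each had peaks in 2 libraries of its genotype, with deposited folds of 2.98 to 6.57. Such regions lay at 2 of 9 members each, against 28.9% of genes for het and 17.4% for ko. The counts depended on single libraries. Without het replicate 2 or 4 the het-selective count was 0, and without ko replicate 2 it was 8. The ko-selective count was 5 without het replicate 3, 0 without ko replicate 3 and 1 without ko replicate 2 or 4. At the outermost starts, 5 members had a peak in all 6 libraries, 3 had none, and Acta2 had one in 2 of 3 libraries of each genotype. The Acta2 peaks stood at percentiles 43.3 and 18.0 of their lists in het and 3.14 and 8.92 in ko. RNA of het or ko cells was not analysed here, and the genotypes were not checked from the peak lists.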

How the data were processed

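The authors deposited read counts of each gene, made with featureCounts 1.6.3 on forward-stranded reads and mm10 genes, per the file headers. The submitters' processing notes also name MACS2 2.2.4, deepTools 3.3.1, Bowtie2 2.2.9, STAR 2.7.3a and Bowtie 1.1.1, without roles. Peaks were deposited as 1 list per library, each peak with a fold (a ratio over background) and −log10 p and −log10 q values by the authors; here they only order or select peaks inside 1 list, and the sources used here do not state the control. A missing peak can also mean low depth.

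edgeR 4.0.16 (R 4.3.3) tested 14851 genes by its quasi-likelihood F test after filterByExpr and TMM scaling, with Benjamini-Hochberg adjustment and a threshold of 0.05; DESeq2 1.42.0 was the alternative tool. SE is the log2 difference divided by the root of F. CPM used TMM-scaled totals, and levels per kb used the length in the count table. Count test and peak merging were tested on simulated data. Peaks and promoters were handled in Python 3.11.15 with pandas 2.3.3, and coordinates are mm10, counted from 1. Peaks were not placed at 144 genes that the table lists on several chromosomes or strands. Replicates differed by more than counting noise (chi-square per degree of freedom 8.05 in EC, 14.1 to 35.7 in CM).

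Members, lists and tests were chosen with earlier results of these data known. From each list up to 3 genes with the smallest adjusted p in each direction were named (5 where tied), and genes against the majority where there were 3 or fewer. Tnnt2, Cfl2, Actg2, Myh11, Msn and Setd3 were named beyond this rule after their values were seen, as was the second Tpm3 start. Diaph1 and Naa80 were matched through their older symbols. Alternatives were other scalings, no filter, a 2-fold test, a replicate block, stricter or equal-length peak lists, other distances and overlaps, and each library left out. 1 of the 3 genes most like Actc1 in pattern is not reported here.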

Additional observations from a re-analysis of the deposited data

How the results depend on the processing

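All 108 alternative values of the members' log2 differences kept their direction and passed the test, the largest edgeR adjusted p being 0.0182, for Tpm4 tested against a 2-fold change. Leaving out each RNA library gave 4 higher and 5 lower members each time. With the replicate block the counts were also 4 and 5. The deviations of same-numbered EC and CM libraries from their group means had correlations of -0.0196 and -0.00880. With 2 EC libraries the deviations of 1 mirror those of the other. These values therefore cannot show whether same-numbered libraries share an origin, which was not tested. The median log2 difference of all genes was -0.23 with no filter and -0.12 with DESeq2. From raw counts not divided by length the muscle share of actin RNA was 3.44% in EC and 88.6% in CM. Per kb, with a library left out, the share was 4.05% to 4.13% in EC and 90.6% to 90.9% in CM. Peak counts depended on the settings far more. Tie2-Cre-selective, Tnnt2-Cre-selective and shared GATA4 regions at members numbered 1, 1 and 0 with lists of equal length and 0, 0 and 0 with 3 of 3 libraries required. Within 20 kb there were 6 Tnnt2-Cre-selective and 3 shared regions, within 100 kb 8 Tie2-Cre-selective and 9 shared, and with a peak required to cover 0.5 of its region 2 shared. Leaving out single libraries gave 0 to 5 Tie2-Cre-selective, 0 to 13 Tnnt2-Cre-selective and 1 to 5 shared regions. Het-selective ATAC regions numbered 0 and ko-selective ones 1 at a −log10 q of at least 5, and het-selective ones 0 within 20 kb and 6 within 100 kb; leaving out single libraries gave 0 to 8 and 0 to 5. Requiring 3 of 3 libraries leaves short lists to decide, and leaving out a library leaves fewer lists; other causes were not tested. Of 91 other values, 59 stayed within the limits set for them and 32 moved. The 59 include the counts of higher and lower members, which never changed, and most of the 32 were peak counts. Taken alone, the peak counts were therefore less stable than 59 of 91. Members with a start peak in both Tie2-Cre ATAC libraries stayed at 6 with each library left out.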
